A study of Mus musculus with 6 samples.

Results

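The Hox genes of cultured mouse knee chondrocytes were described by cluster and by paralogue number, in WT cells and in cells with a deletion of Ppp1r15b. They were taken as every row of the gene table whose symbol is Hox, a cluster letter from a to d and a number. The choice uses the symbol and no measured value. It gave 37 of the 17666 genes in the table, of which 11 were Hoxa, 9 Hoxb, 9 Hoxc and 8 Hoxd genes. The expression of Hoxb1 and Hoxd12 was not analysed here.

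Hox genes encode transcription factors that bind DNA through a homeodomain, which is coded by a conserved stretch called the homeobox. Genes of one number in different clusters are paralogues that descend from one ancestral gene, and within a cluster low numbers lie at the 3′ end and high numbers at the 5′ end. Their order along the chromosome follows their order of expression along the body axis, and the set of Hox genes that a mesenchymal cell keeps on is widely used as a record of its position. In the mouse limb the paralogues of groups 9 and 10 pattern the upper segment, those of group 11 the middle segment and those of group 13 the hand or foot. The knee lies where the upper and middle segments meet.

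The study compared 3 WT and 3 KO libraries of RNA from primary chondrocytes. The WT cells carried Prx1-Cre and the Rosa26mT/mG reporter, and the KO cells carried the same alleles together with deletion of Ppp1r15b by Prx1-Cre. Ppp1r15b encodes a regulatory subunit of the phosphatase that acts on the translation factor eIF2alpha. Per the labels, cells that had switched on GFP were sorted from the knee joints of newborn (P0) animals and then cultured until they matured. Prx1-Cre acts in limb bud mesenchyme, so GFP marks every cell of that origin and not cartilage alone. Whether the replicates stem from different mice or dishes is not stated, and the p-values then reflect the spread among these 6 samples alone, possibly a technical one.

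Ppp1r15b itself stood at 34.81, 19.92 and 35.56 TPM (a level scaled for transcript length and library depth) in WT replicates 1 to 3 and at 7.54, 9.56 and 11.20 in KO replicates 1 to 3. The KO libraries thus lay below the WT libraries (-1.70 on the log2 scale, edgeR adjusted p = 0.0297), with reads left in each, and which part of the gene those reads cover was not tested. The 6 libraries held 18380875 to 19643946 rounded estimated counts. Chondrocyte markers summed to 16790 to 21420 TPM in WT and 18830 to 20110 TPM in KO, so the genes that define the labelled cell type were abundant in both groups. Col2a1 made up most of these sums, with means of 13400 TPM in WT and 11800 TPM in KO. Of the 12 markers edgeR called 2 higher in KO, Col9a2 and Col11a2, and 0 lower, against 0.884% and 1.63% of all tested genes. Without KO replicate 3, 4 were called higher and 0 lower, against 12.5% and 16.1%. Among the limb type genes the hindlimb factor Pitx1 was at 200.9 to 315.4 TPM and Tbx4, also of the hindlimb, at 31.8 to 43.7 TPM, against 11.5 to 15.3 TPM for the forelimb factor Tbx5. KO replicate 3 stood apart: its log2 CPM values (counts scaled for library depth) correlated with those of KO replicates 1 and 2 at 0.935 and 0.934 across tested genes, against 0.994 between those replicates. WT replicate 2 correlated with the other WT replicates at 0.982. Calls are therefore also given without KO replicate 3, and without both libraries.

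Markers of other cells differed between libraries, some lists by genotype and some through single libraries. Their part in the Hox values was not tested. The 8 adipocyte markers summed to 1358 to 2835 TPM in WT and 181.6 to 257.8 TPM in KO, and 7 of them were called lower. The 10 macrophage markers summed to 363 to 680.1 TPM in WT and 26.7 to 284 TPM in KO, with 2 called lower, while the 10 skeletal muscle markers to 73.3 to 577 TPM in WT and 15.3, 13.58 and 239.8 TPM in KO replicates 1 to 3, with 0 of 9 tested called (0 higher and 1 lower at an unadjusted p under 0.05). The 8 fibroblast and perichondrium markers were at 9343 to 12340 TPM in WT, 10990 and 11660 TPM in KO replicates 1 and 2, and 3299 TPM in KO replicate 3. The 6 hypertrophic markers summed to 1417 to 1661 TPM in WT and to 635, 656 and 1530 TPM in KO replicates 1 to 3, with 3 called lower. Smooth muscle markers summed to 610.0 to 816 TPM in WT and 408 to 464 TPM in KO, with Tagln called lower. Schwann and neural markers summed to 9.51 to 21.9 TPM in WT and 7.92 to 14.7 TPM in KO, and endothelial markers to 4.18 to 7.90 TPM in WT and 3.48 to 7.01 TPM in KO. No fibroblast, Schwann, neural or endothelial marker was called with all libraries. Over all tested genes edgeR called 0.884% higher and 1.63% lower. Without KO replicate 3 all 8 adipocyte, 10 macrophage, 9 tested muscle and 5 tested hypertrophic markers were called lower, with 3 smooth muscle, 3 endothelial, 3 fibroblast and 1 Schwann or neural markers lower and 2 fibroblast markers higher. In that fit 12.5% of all tested genes were called higher and 16.1% lower. No marker was at 0 in all 6 libraries. In such bulk samples fewer cells of a type and less RNA per cell cannot be told apart.

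The Hox genes of these cells were dominated by Hoxa10 and Hoxc10, and by group 10 as a whole. The summed level of all 37 genes was 448, 475 and 459 TPM in WT replicates 1 to 3 and 506, 509 and 439 TPM in KO replicates 1 to 3. The 5 most abundant genes held 70.5% of that sum, 15 genes had a mean of at least 5 TPM and 11 were under 1 TPM. The order Hoxa10, Hoxc10, Hoxa9, Hoxa11, Hoxc6 and Hoxd8 held in 6 of 6 libraries at every step. Below it the neighbours Hoxd8, Hoxc9, Hoxa5, Hoxd9, Hoxc4 and Hoxc11 changed places between libraries.

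**Figure D1:**
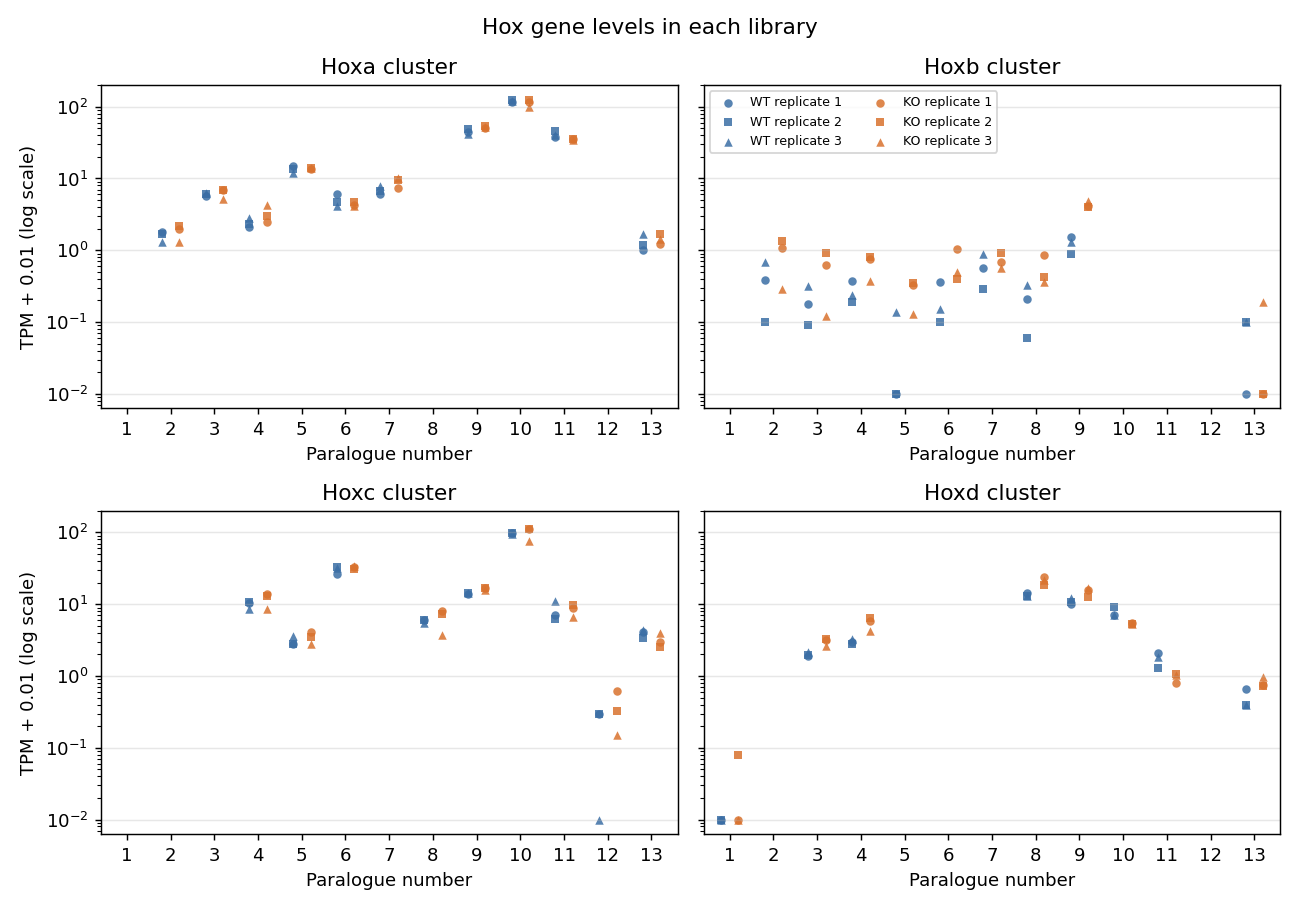
Level of 36 of the 37 Hox genes in each library, as TPM + 0.01 on a log axis, by paralogue number in 1 panel per cluster, with WT and KO side by side and 1 symbol per replicate. Hoxa10 and Hoxc10 sit highest, between 76.5 and 125.4 TPM, while Hoxb2 to Hoxb8 sit between 0.00 and 1.33 TPM and Hoxb9 between 0.87 and 4.81 TPM.

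By paralogue group, group 10 (Hoxa10, Hoxc10 and Hoxd10) held 48.9% ± 0.453 (SD, n = 3) of the Hox TPM in WT and 44.7% ± 3.31 in KO. Group 9 held 15.4% ± 0.286 in WT and 18.3% ± 1.73 in KO, and group 11 held 11.2% ± 0.618 and 9.19% ± 0.454. The libraries did not overlap in any of these 3 shares, with 48.4% to 49.3% against 40.9% to 47.2% for group 10, 15.1% to 15.6% against 17.3% to 20.3% for group 9 and 10.5% to 11.7% against 8.86% to 9.71% for group 11. In level, as against share, group 10 overlapped, at 219.6 to 234.0 TPM in WT and 179.5 to 240.3 TPM in KO. Groups 6, 8, 4 and 5 held 7.74%, 4.23%, 3.39% and 3.60% of the WT sum, and each of the others held under 2%. The groups that pattern the upper and middle limb segments thus led, while group 13, of the hand and foot, held 1.26% ± 0.194 in WT and 1.14% ± 0.301 in KO. Group 8 held 5.79% ± 0.667 in KO, and its 3 KO libraries (5.10% to 6.44%) lay above its 3 WT libraries (4.01% to 4.57%). Group 4 held 4.36% ± 0.346 in KO, also with no overlap. These shares sum to the same total in each library, so a gain in one is a loss in another, and they were not tested.

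**Figure D2:**
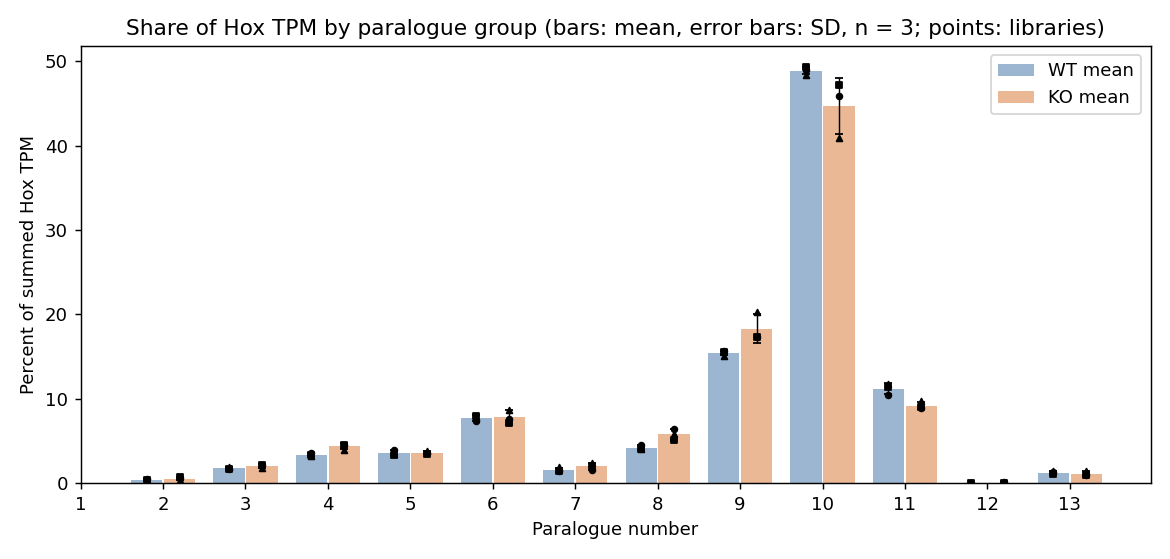
Share of the summed Hox TPM by paralogue group, from 2 to 13, in percent, as the mean (bar) with its SD (error bar, n = 3) and each library as a point, for WT and KO. Group 10 is the tallest in both, at 48.9% in WT and 44.7% in KO, while group 9 stands at 15.4% and 18.3%.

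By cluster, Hoxa held 53.1% ± 1.10 of the Hox TPM in WT and 50.03% ± 2.04 in KO (n = 3 each), and Hoxc held 37.6% ± 0.569 and 37.4% ± 2.57. The Hoxd cluster held 8.58% ± 0.276 in WT and 10.7% ± 1.31 in KO, with 8.27% to 8.78% in the WT libraries and 9.37%, 10.9% and 11.96% in the KO libraries. The Hoxb cluster held 0.681% ± 0.279 in WT and 1.77% ± 0.113 in KO, with 0.364% to 0.887% against 1.65% to 1.88%. The KO libraries thus all lay above WT in the shares of Hoxb and Hoxd and all below WT in that of Hoxa (52.1% to 54.3% in WT, 47.8% to 51.9% in KO), while those of Hoxc overlapped. In summed level, as against share, Hoxa overlapped, at 237.2 to 257.8 TPM in WT and 227.4 to 256.6 TPM in KO. The summed levels of Hoxb and Hoxd did not overlap, with KO higher.

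KO was compared with WT gene by gene with the edgeR quasi-likelihood test over all 13692 genes that passed a filter on low counts, with a call at an adjusted p under 0.05. Of the 37 Hox genes 27 passed that filter (11 Hoxa, 1 Hoxb, 8 Hoxc and 7 Hoxd genes). Exactly 1 was called higher in KO, Hoxb9, and 0 were called lower, against 0.884% and 1.63% of all tested genes. At an unadjusted p under 0.05 there were 5 higher and 3 lower, against 9.29% and 9.90% of all tested genes. Without KO replicate 3, 7 of 30 tested Hox genes were called higher and 2 lower, against 12.5% and 16.1% of 13880 tested genes. Hoxb2, Hoxb3 and Hoxb4 entered that fit through their KO counts, so they had to be higher to be tested, and among the 27 genes tested in both fits 5 were called higher and 2 lower. Those called higher were Hoxb3, Hoxb4, Hoxb9, Hoxc4, Hoxd3, Hoxd4 and Hoxd8, and those called lower were Hoxd10 and Hoxd11. Without both KO replicate 3 and WT replicate 2, 10 of 30 were called higher and 3 lower, against 17.5% and 21.7% of 13804 tested genes, which added Hoxa9, Hoxc8 and Hoxc10 to those higher and Hoxc13 to those lower. The DESeq2 Wald test on all 6 libraries called Hoxb9, Hoxd4 and Hoxd8 higher and 0 lower, against 3.19% and 4.45% of all genes it tested.

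The median log2 fold change of KO against WT was 0.13 over the 27 Hox genes and 0.00 over all tested genes, and 19 Hox estimates were above 0 and 8 below, against 51.0% and 49.0% of all tested genes. By cluster it was 0.02 for Hoxa (from -0.29 to 0.39), 0.11 for Hoxc (from -0.36 to 0.26) and 0.57 for Hoxd (from -0.87 to 0.84). The Hoxb value, 1.79, is that of Hoxb9 alone. In 8 of the 27 the KO libraries all lay above the WT libraries in CPM, and in 3 they all lay below, against 14.0% and 14.5% of all tested genes. The median SD of log2 CPM between WT libraries was 0.169 for the tested Hox genes, 0.0964 for all tested genes and 0.1001 for tested genes in the same CPM range. That range, from the lowest to the highest tested Hox gene, holds 11765 of 13692 tested genes, so they are not matched to the Hox genes in level. Between KO libraries the median SD was 0.200 for the tested Hox genes and 0.207 for all tested genes.

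**Figure D3:**
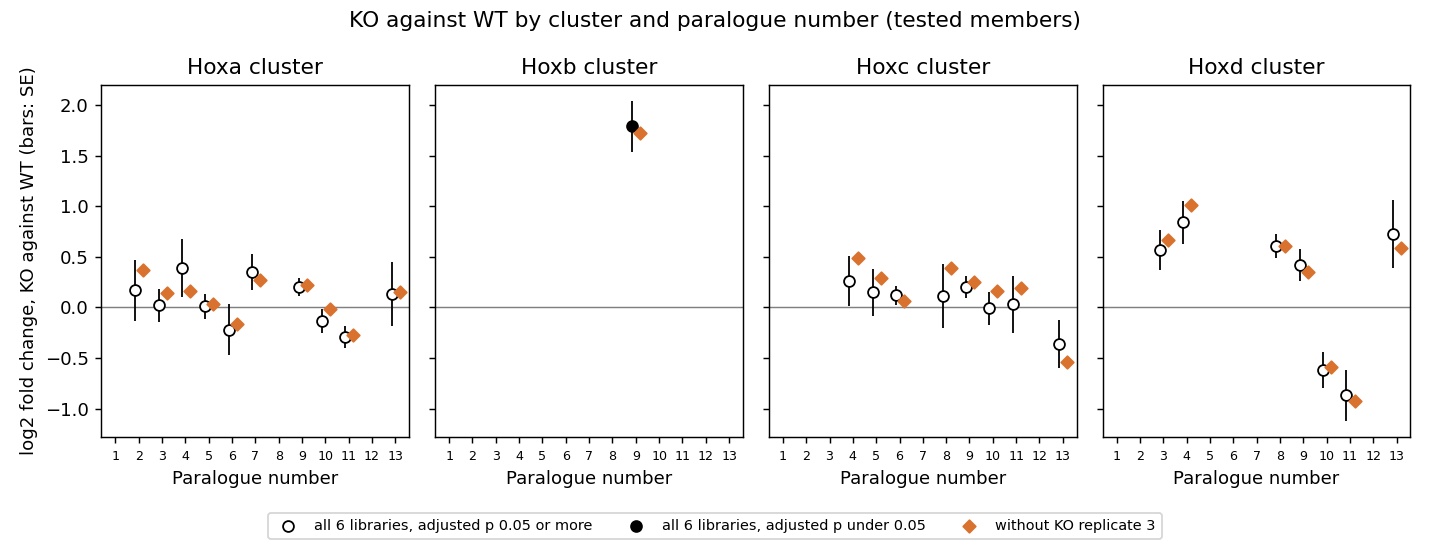
Log2 fold change of KO against WT for 26 of the 27 tested Hox genes by paralogue number, 1 panel per cluster, as circles with the SE as bars (filled for an adjusted p under 0.05), and as diamonds without KO replicate 3. Hoxb9 is the 1 filled circle, at 1.79, while the Hoxd genes run from -0.87 to 0.84 and the Hoxa and Hoxc genes lie between -0.36 and 0.39.

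Hoxb9 was the only Hox gene called by edgeR with all libraries kept. Hoxb9 (gene 15417, chr11:96271457-96276595, plus strand, GRCm38) belongs to the group that acts with group 10 in the upper limb segment and, in the mouse, along the thoracic spine and ribs. It was at 1.54, 0.87 and 1.29 TPM in WT replicates 1 to 3 and at 4.19, 4.02 and 4.81 TPM in KO replicates 1 to 3. All 3 KO libraries stood well above the WT libraries, KO replicate 3 among them. The mean was 1.23 ± 0.339 TPM in WT and 4.34 ± 0.416 TPM in KO (SD, n = 3), a 3.45-fold rise (1.79 on the log2 scale, SE 0.252, edgeR adjusted p = 0.0291). It rested on 85 counts in WT and 294 in KO. The size held between 1.53 and 1.96 under 14 alternative settings, with a call in 8 of them and adjusted p from 7.91e-07 to 0.184. The call was lost when any of WT replicates 1, 2 and 3 or KO replicates 1 and 2 was left out, at adjusted p of 0.132, 0.0570, 0.184, 0.113 and 0.113, and with the replicate number as a block, at 0.126. With any single library of WT replicates 1 and 3 or KO replicates 1 and 2 left out, edgeR called 0 of all tested genes, not Hoxb9 alone.

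The 4 paralogues of group 9 share much of their homeobox, which bears on how well reads can be assigned among them. The homeobox of Hoxb9, the 1 called gene, is given beside that of Hoxc9. Over whole transcripts Hoxb9 shares its longest run of bases with Hoxc9, and that run is not contained in the homeoboxes printed. By homeobox identity Hoxd9 is closer to Hoxb9, and its sequence is not printed. Both are from GENCODE vM21 transcripts (GRCm38), 5′ to 3′ on the coding strand, and capitals mark the 51 of 180 positions at which the 4 paralogues differ.
Hoxb9: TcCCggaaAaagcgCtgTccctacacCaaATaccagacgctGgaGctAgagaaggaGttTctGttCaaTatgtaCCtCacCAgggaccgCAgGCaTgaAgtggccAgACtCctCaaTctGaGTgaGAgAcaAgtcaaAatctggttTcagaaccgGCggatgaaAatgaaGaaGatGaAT
Hoxc9: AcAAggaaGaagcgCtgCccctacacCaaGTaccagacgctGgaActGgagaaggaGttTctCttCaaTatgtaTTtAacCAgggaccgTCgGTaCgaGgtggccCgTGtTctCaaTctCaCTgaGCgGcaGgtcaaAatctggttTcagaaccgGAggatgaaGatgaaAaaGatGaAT
The Hoxb9 homeobox was identical at 81.7% of positions to that of Hoxa9, at 83.9% to Hoxc9 and at 84.4% to Hoxd9. Across all 37 genes the mean identity was 80.7% over 39 pairs within a paralogue group and 62.6% over 155 pairs within a cluster. The longest run of identical bases that Hoxb9 shared with another Hox transcript was 50 bases, with Hoxc9, and only 2 of 666 pairs of Hox genes shared a run of at least 50 bases. Hoxb9 shared no exon base with any annotated gene. How the deposited counts split reads between such genes is not given in the sources used here.

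The other group 9 genes, Hoxa9, Hoxc9 and Hoxd9, have been linked to limb position and, with Hoxb9, to the upper limb segment. Hoxa9 was at 44.62, 48.11 and 41.39 TPM in WT and 50.92, 54.26 and 51.76 TPM in KO (log2 fold change 0.20, SE 0.0868, edgeR adjusted p = 0.287), and it was called without both KO replicate 3 and WT replicate 2 (0.29, adjusted p = 0.00223). Hoxc9 was at 13.83, 14.24 and 14.27 TPM in WT and 17.05, 17.0 and 15.65 TPM in KO (0.20, SE 0.110, edgeR adjusted p = 0.385). Hoxd9 was at 10.08, 10.68 and 12.34 TPM in WT and 15.70, 12.61 and 16.81 TPM in KO (0.42, SE 0.157, edgeR adjusted p = 0.227). In all 3 the KO libraries lay above the WT libraries, against 14.0% of all tested genes by CPM. None of the 3 passed the test with all 6 libraries. The summed level of group 9 was 71.1 ± 2.47 TPM in WT and 88.3 ± 0.667 TPM in KO, and Hoxa9 made up most of it.

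The Hoxd genes had estimates in both directions. All 7 tested members had WT and KO libraries that did not overlap, 5 with KO higher and 2 with KO lower, against 28.4% of all tested genes in either direction. None was called by edgeR with all 6 libraries. At an unadjusted p under 0.05 there were 4 with KO higher and 2 with KO lower. Over all tested genes those shares were 9.29% and 9.90%. The DESeq2 Wald test called Hoxd4 and Hoxd8 higher, against 3.19% of all genes it tested. The summed Hoxd level was 39.0, 39.3 and 40.3 TPM in WT replicates 1 to 3 and 55.2, 47.7 and 52.5 TPM in KO replicates 1 to 3. In the mouse limb bud this cluster is switched on by enhancers on both of its flanks, with the 3′ flank acting on its 3′ and central genes and the 5′ flank on its 5′ genes. Listed from the 5′ end, the log2 fold changes were 0.73 for Hoxd13, -0.87 for Hoxd11, -0.62 for Hoxd10, 0.42 for Hoxd9, 0.61 for Hoxd8, 0.84 for Hoxd4 and 0.57 for Hoxd3. The central genes Hoxd11 and Hoxd10, which lie next to each other in this list, had all KO libraries below WT, and the others, Hoxd13 at the 5′ end included, had all KO libraries above WT. Position itself was not tested.

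Hoxd8 (chr2:74704615-74707933), a central gene of the cluster, was at 14.27, 13.03 and 13.13 TPM in WT replicates 1 to 3 and at 23.60, 18.34 and 21.50 TPM in KO replicates 1 to 3. Its KO libraries all stood above its WT libraries, KO replicate 3 within the other KO values, and its estimate on the log2 scale was 0.61 (SE 0.120, edgeR adjusted p = 0.0599). It was called by the DESeq2 Wald test (adjusted p = 0.00284) and by edgeR without KO replicate 3 (0.61, adjusted p = 0.00833), and over 14 settings the adjusted p ran from 0.000340 to 0.269. Hoxd4 (chr2:74711929-74729160), of the group known for patterning the hindbrain and neck, was at 2.94, 2.75 and 3.29 TPM in WT and 5.83, 6.33 and 4.28 TPM in KO. KO replicate 3 was the lowest of the KO libraries and still above WT, with a log2 estimate of 0.84 (SE 0.210, edgeR adjusted p = 0.102). The DESeq2 Wald test called it (adjusted p = 0.0263), as did edgeR without KO replicate 3 (1.01, adjusted p = 0.00346), within a range of 0.000141 to 0.358 over 14 settings.

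Hoxd3, the 3′ neighbour of Hoxd4, was at 1.87 to 2.15 TPM in WT and 2.63 to 3.26 TPM in KO (0.57, SE 0.198, edgeR adjusted p = 0.199), and was called without KO replicate 3 (0.67, adjusted p = 0.0364). In GENCODE, Hoxd3 and Hoxd4 share 388 exon bases on the same strand. Both also share exon bases with the same-strand gene Gm28230 (2225 bases, 53.1% of the Hoxd3 exons, and 1154 bases, 39.2% of the Hoxd4 exons) and 347 bases with the antisense gene Hoxd3os1. Their counts may therefore not be independent, which was not tested. Hoxd13, the gene of the hand and foot, was low, at 0.38 to 0.65 TPM in WT and 0.71 to 0.97 TPM in KO (0.73, SE 0.337, edgeR adjusted p = 0.308). Hoxd1 had 1 count, in KO replicate 2.

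Hoxd10 (chr2:74691924-74695105), which acts with Hoxa10 and Hoxc10 in the upper hindlimb and in motor neurons, was at 7.13, 9.16 and 7.17 TPM in WT replicates 1 to 3. In KO replicates 1 to 3 it was at 5.40, 5.32 and 5.25 TPM, all below the WT libraries and close to each other. Its log2 estimate was -0.62 (SE 0.175, edgeR adjusted p = 0.135), and -0.59 (adjusted p = 0.0421) without KO replicate 3. Hoxd11 (chr2:74679557-74687016), which with Hoxa11 patterns the middle limb segment, was at 2.05, 1.27 and 1.81 TPM in WT and 0.78, 1.05 and 1.03 TPM in KO. The KO libraries again lay below, with an estimate of -0.87 (SE 0.255, edgeR adjusted p = 0.146), and -0.92 (adjusted p = 0.0482) without KO replicate 3. Hoxd10 and Hoxd11 share 104 and 455 exon bases with the same annotated transcript, Gm28309.

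**Figure D4:**
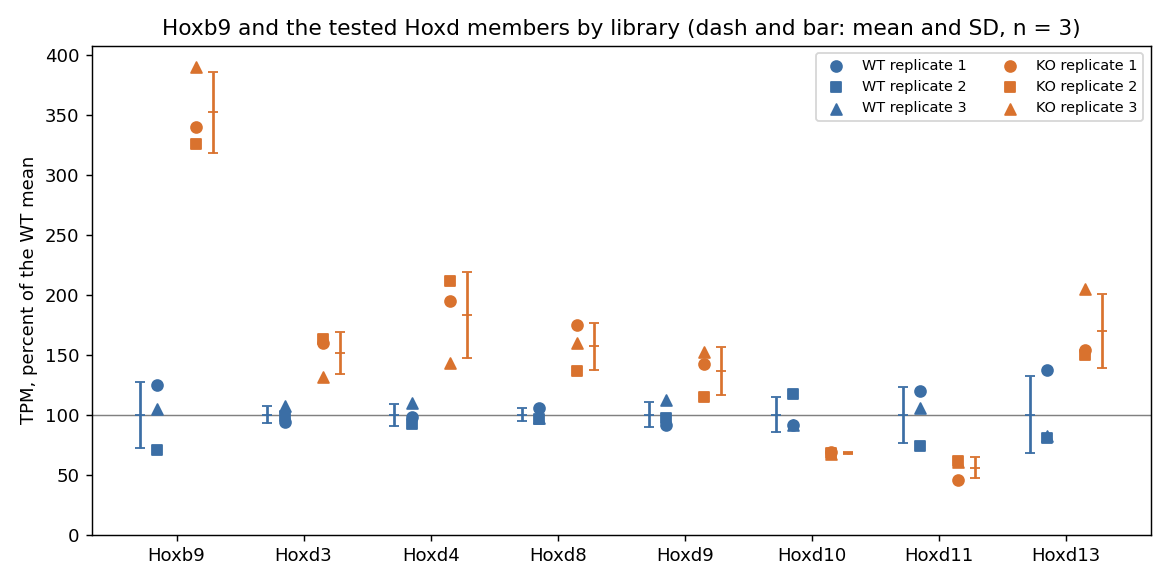
TPM of Hoxb9 and the 7 tested Hoxd genes in each library as a percent of the gene's WT mean, with the mean (dash) and SD (bar, n = 3) of each group. The KO points of Hoxb9 lie highest, those of Hoxd8 and Hoxd4 lie above the WT points, and those of Hoxd10 and Hoxd11 lie below them.

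The start regions of 4 Hoxd genes called without KO replicate 3, a pair higher and a pair lower, are shown for the letters they hold. Hoxd3, also called higher without that library, is not shown, nor is Hoxd13. The sequences shown are from RefSeq promoters (GRCm38.p6), 5′ to 3′ on the plus strand, which is the strand of these genes. The windows are the 250 bases before the RefSeq start (chr2:74721728-74721977 for Hoxd4, chr2:74704365-74704614 for Hoxd8, chr2:74691641-74691890 for Hoxd10 and chr2:74682073-74682322 for Hoxd11). Capitals mark matches to 5 motifs searched on both strands. They were the CCAAT box with the letters CCAAT, the TATA box with TATAAA, a posterior Hox motif with TTTATNG, a joint Hox and Pbx motif with TGATNNAT and a joint ATF4 and C/EBP motif with TTGCNTCA.
Hoxd4: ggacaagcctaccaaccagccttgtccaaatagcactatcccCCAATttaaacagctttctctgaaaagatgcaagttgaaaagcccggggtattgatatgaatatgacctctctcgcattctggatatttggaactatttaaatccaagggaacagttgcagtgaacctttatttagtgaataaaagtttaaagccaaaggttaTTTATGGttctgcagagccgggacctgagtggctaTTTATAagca
Hoxd8: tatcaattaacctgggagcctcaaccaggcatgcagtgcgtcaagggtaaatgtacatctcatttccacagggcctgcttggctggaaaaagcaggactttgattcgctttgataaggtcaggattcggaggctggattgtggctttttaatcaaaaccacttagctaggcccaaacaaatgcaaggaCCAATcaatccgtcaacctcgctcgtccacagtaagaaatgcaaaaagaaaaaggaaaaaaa
Hoxd10: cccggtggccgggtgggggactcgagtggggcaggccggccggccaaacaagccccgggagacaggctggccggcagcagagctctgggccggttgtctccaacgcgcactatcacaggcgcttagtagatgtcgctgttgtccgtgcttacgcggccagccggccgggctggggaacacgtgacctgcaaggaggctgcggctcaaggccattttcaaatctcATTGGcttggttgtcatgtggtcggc
Hoxd11: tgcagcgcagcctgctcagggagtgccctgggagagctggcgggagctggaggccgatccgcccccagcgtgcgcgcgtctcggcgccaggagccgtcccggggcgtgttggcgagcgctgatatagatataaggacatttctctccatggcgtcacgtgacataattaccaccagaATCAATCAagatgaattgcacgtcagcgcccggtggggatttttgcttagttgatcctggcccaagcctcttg
The windows of Hoxd4, Hoxd8 and Hoxd10 hold a CCAAT box match, that of Hoxd4 also a TATA box and a posterior Hox motif, and that of Hoxd11 a joint Hox and Pbx motif. None of the 4 holds the ATF4 motif. Of all 32851 RefSeq promoters, in the full window from 250 bases before to 50 after the start, 33.9% hold the CCAAT box, 12.4% the TATA box, 9.81% the posterior Hox motif, 7.68% the Hox and Pbx motif and 3.12% the ATF4 motif. The 24 Hox promoters in that table cover 20 of the 37 genes and include those of Hoxb1 and Hoxd12. Of these 24, 14 hold the CCAAT box, 4 the TATA box, 2 the posterior Hox motif, 4 the Hox and Pbx motif and 0 the ATF4 motif. The Hoxd4 and Hoxd8 windows had a GC content of 40.4% and 44.4% and those of Hoxd10 and Hoxd11 of 65.6% and 60.4%. The window of Hoxd9, whose KO libraries also lay above WT, had a GC content of 65.2% over 214 bases and no match to the 5 motifs. The median was 58.6% over Hox promoters and 52.4% over all. GC contents are not given for Hoxd3 and Hoxd13, whose KO libraries also lay above WT, so these values are no comparison of higher with lower genes. A match here is a description of the letters only.

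The Hoxa cluster held the most of the Hox TPM, and 0 of its 11 members were called by edgeR or by the DESeq2 Wald test (0 higher and 1 lower at an unadjusted p under 0.05). Hoxa10, which patterns the upper limb segment, was at 115.2, 125.4 and 118.7 TPM in WT replicates 1 to 3 and at 116.5, 124.1 and 97.8 TPM in KO replicates 1 to 3. Its groups overlapped, with KO replicate 3 below all others (-0.13, SE 0.119, edgeR adjusted p = 0.607). Hoxa11, the middle segment gene, was at 37.91, 46.50 and 40.96 TPM in WT and 35.18, 34.96 and 34.82 TPM in KO. Its KO libraries lay close together and below all WT libraries, with an estimate of -0.29 (SE 0.107, edgeR adjusted p = 0.220), the lowest of the cluster. Hoxa11 shares 800 exon bases (35.0% of its exons) with the antisense gene Hoxa11os, and the strand setting of the counts is not given in the sources used here.

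The largest positive estimate of the Hoxa cluster was that of Hoxa4, another gene of the neck group. Hoxa4 was at 2.08, 2.34 and 2.81 TPM in WT and 2.49, 2.95 and 4.27 TPM in KO, with overlapping groups and the highest value in KO replicate 3 (0.39, SE 0.283, edgeR adjusted p = 0.514). A further 6 Hoxa genes had log2 fold changes from -0.22 (Hoxa6) to 0.35 (Hoxa7) and edgeR adjusted p from 0.344 to 0.968, and their groups overlapped. Among them Hoxa5, a gene of the shoulder and lung, was at 12.05 to 14.92 TPM in all 6 libraries, and Hoxa13 was at 1.00 to 1.70 TPM. Of group 11, Hoxa11 and Hoxd11 both had all KO libraries below WT, while Hoxc11 was at 6.30 to 10.9 TPM in WT and 6.73 to 9.87 TPM in KO.

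The Hoxc cluster, whose posterior genes are expressed in the hindlimb and not the forelimb of the mouse, had 0 calls among 8 tested members with all 6 libraries, by edgeR or by the DESeq2 Wald test, and 0 members at an unadjusted p under 0.05. Hoxc10 was at 97.2, 99.5 and 96.1 TPM in WT replicates 1 to 3 and at 110.4, 110.9 and 76.5 TPM in KO replicates 1 to 3. KO replicates 1 and 2 stood above WT and KO replicate 3 below it, so that the log2 fold change was -0.01 (SE 0.161, edgeR adjusted p = 0.993), 0.16 without KO replicate 3 (adjusted p = 0.0807) and 0.20 without both KO replicate 3 and WT replicate 2 (adjusted p = 0.0215). Hoxc6, a gene of the thoracic level, was at 26.65, 33.00 and 32.02 TPM in WT and 33.25, 31.22 and 33.59 TPM in KO, with overlapping groups (0.12, SE 0.0967, edgeR adjusted p = 0.574).

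Hoxc4 had the largest positive estimate of the cluster. It was at 10.50, 10.74 and 8.56 TPM in WT and 14.02, 13.18 and 8.48 TPM in KO, where KO replicate 3 was the lowest of all libraries (0.26, SE 0.244, edgeR adjusted p = 0.620). Without that library the value was 0.49 (adjusted p = 0.0247). Hoxc13, known for its role in hair and nails, had the largest negative one, at 4.14, 3.34 and 4.41 TPM in WT and 2.98, 2.50 and 3.95 TPM in KO. Its groups overlapped through KO replicate 3 (-0.36, SE 0.234, edgeR adjusted p = 0.463). It was at -0.54 without that library (adjusted p = 0.0924) and at -0.64 without WT replicate 2 as well (adjusted p = 0.0156). Hoxc8, of the thoracic level, was at 8.15 and 7.23 TPM in KO replicates 1 and 2 and at 3.67 TPM in KO replicate 3, with 5.40 to 6.01 TPM in WT. Its estimate was 0.11 with all libraries (edgeR adjusted p = 0.897), 0.39 without KO replicate 3 (adjusted p = 0.0785) and 0.43 without both (adjusted p = 0.0291). The remaining tested Hoxc genes, Hoxc5 and Hoxc11, had estimates of 0.15 and 0.03.

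KO replicate 3 departed from the other KO libraries in both directions among the Hox genes. Its difference from the mean of KO replicates 1 and 2 on the log2 CPM scale was -1.07 for Hoxc8, -0.79 for Hoxc4 and -0.65 for Hoxa2. That difference was -0.56 for Hoxc10 and -0.53 for Hoxd4, and 0.59 for Hoxa4 and 0.49 for Hoxc13. It was 0.20 for Hoxb9, 0.03 for Hoxd8 and -0.04 for Hoxa11. The median absolute difference was 0.316 over the tested Hox genes and 0.312 over all tested genes.

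The Hoxb genes other than Hoxb9 were near the detection limit. Hoxb2 to Hoxb8, which act in the hindbrain and the anterior trunk, together had 33, 12 and 40 counts in WT replicates 1 to 3 and 84, 78 and 36 counts in KO replicates 1 to 3. KO replicates 1 and 2 lay above WT and KO replicate 3 lay within the WT values. All 7 genes had more counts summed over KO than over WT. Hoxb2, the third most abundant of the cluster, was at 0.37, 0.09 and 0.68 TPM in WT and 1.07, 1.33 and 0.28 TPM in KO. Hoxb7 was at 0.56, 0.28 and 0.88 TPM in WT and 0.68, 0.92 and 0.56 TPM in KO, with overlapping groups.

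The ratio of KO to WT counts per depth, with a 95% interval that covers counting error only and not the spread between libraries, was 2.84 for Hoxb3 (1.54 to 5.51), 2.39 for Hoxb4 (1.32 to 4.49) and 2.95 for Hoxb8 (1.45 to 6.49). For Hoxb2 it was 2.03 (1.03 to 4.17), for Hoxb6 2.79 (1.20 to 7.25) and for Hoxb7 1.24 (0.635 to 2.45). Hoxb5, at 2 counts in WT and 12 in KO, gave 6.09 (1.36 to 56.0), and Hoxb13, at 2 counts in each, gave 1.01 (0.0735 to 14.0). With all libraries and no filter on low counts, none of Hoxb2 to Hoxb8 was called. Their edgeR adjusted p then ran from 0.278 (Hoxb4) to 0.823 (Hoxb7). The DESeq2 Wald test gave adjusted p from 0.361 (Hoxb4) to 0.921 (Hoxb7), and gave none for Hoxb5. Hoxb8 was the 1 untested member whose libraries did not overlap, at 0.05 to 0.32 TPM in WT and 0.35 to 0.84 TPM in KO, against 11.6% of all genes in the table with KO higher. Without KO replicate 3, Hoxb3 (log2 fold change 1.99, edgeR adjusted p = 0.0252) and Hoxb4 (1.53, adjusted p = 0.0314) passed the filter and were called. Hoxb3 had 5, 2 and 8 counts in WT and 16 and 23 in KO replicates 1 and 2, and Hoxb4 had 8, 4 and 5 and 16 and 16. Both passed the filter of 10 counts only through those KO libraries, so these calls are no independent support for a rise. Hoxb3 shares 2250 exon bases (52.9% of its exons) with the antisense gene Hoxb3os, and Hoxb2 shares 953 with it. Hoxc12, the last of the 10 untested genes, had 4 counts in WT and 7 in KO.

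Transcripts were deposited for the same genes, and 12 Hox genes had more than 1 of 61 Hox transcripts. For the 7 of them with a mean of at least 50 counts, the share of each main transcript was compared between groups and not tested, since 3 libraries against 3 allow no exact p under 0.05. Of Hoxa10 the transcript NM_001122950.2 held 47.9% ± 4.47 of the counts in WT and 53.6% ± 4.14 in KO (n = 3 each), with overlap. Of Hoxd10, NM_013554.5 held 77.4% ± 4.78 and 84.2% ± 3.56, also with overlap. Of Hoxd8, NM_008276.3 held 42.2%, 83.1% and 82.7% in WT replicates 1 to 3 and 50.5% to 58.7% in KO, so its WT libraries spanned a wider range than its KO libraries. Among all transcripts of these 7 genes, the groups did not overlap for 2 minor ones. They were XM_017321404.1 of Hoxa3 (9.99% ± 2.53 in WT and 6.20% ± 1.48 in KO) and XM_017316437.1 of Hoxc6 (3.48% ± 0.752 and 1.43% ± 1.25). Both are named because they did not overlap. The share of all deposited transcripts without overlap is not given here, so no change is read from them.

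The partners and regulators of Hox genes were read from lists chosen with earlier results of these data known. Counts at an unadjusted p under 0.05 are read against 9.29% higher and 9.90% lower over all tested genes. The TALE class proteins, such as Pbx and Meis, bind DNA together with Hox proteins. Of 9 tested, edgeR called 0 in either direction with all 6 libraries and the DESeq2 Wald test 2 higher and 0 lower, 4 had an unadjusted p under 0.05 with KO higher and 0 with KO lower, and the median log2 fold change was 0.32. Pbx2, the most abundant, was at 33.9 to 35.9 TPM in WT and 26.8 to 37.0 TPM in KO (-0.08, edgeR adjusted p = 0.802). Without KO replicate 3, 5 of 9 were called higher and 0 lower, against 12.5% and 16.1% of all tested genes. The largest change was that of Meis2, at 8.98 to 10.63 TPM in WT and 24.59, 24.63 and 13.57 TPM in KO (1.04, SE 0.242, edgeR adjusted p = 0.0878), which was singled out after its values were seen.

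Polycomb group proteins keep silent Hox genes off, and trithorax proteins keep active ones on. Of 17 Polycomb genes edgeR called 0 and the DESeq2 Wald test 2 higher and 0 lower. At an unadjusted p under 0.05 there were 3 higher and 0 lower, and the median was 0.19. Without KO replicate 3, 7 of 17 were called higher and 1 lower, against 12.5% and 16.1% of all tested genes. Phc2 and Cbx6, the most abundant, had log2 fold changes of 0.11 and 0.25 (edgeR adjusted p = 0.697 and 0.575). Of 10 trithorax and H3K27 demethylase genes 0 were called by edgeR or DESeq2 (1 higher and 0 lower at an unadjusted p under 0.05, median 0.14) and 2 higher and 0 lower without KO replicate 3, with Dpy30 at 0.09 and Men1 at 0.01. Retinoic acid, made by Aldh1a enzymes, switches on 3′ Hox genes in embryos. Of 14 tested genes of that pathway 0 were called by edgeR or DESeq2 (0 higher and 2 lower at an unadjusted p under 0.05, median -0.27), and without KO replicate 3, 0 of 14 were called higher and 5 lower, against 12.5% and 16.1% of all tested genes. Its most abundant members were the receptor Rarg (0.22, edgeR adjusted p = 0.295) and the reductase Dhrs3 (-0.20, edgeR adjusted p = 0.590).

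The genes that flank the clusters on their chromosomes were also read. Of 14 tested 0 were called by edgeR or DESeq2, 0 had an unadjusted p under 0.05 in either direction and the median was -0.01, and without KO replicate 3, 1 was called higher and 2 lower, against 12.5% and 16.1%, with Atp5g3 at -0.12 and Hnrnpa1 at 0.09. Of the limb type genes 0 of 4 were called by edgeR or DESeq2 (1 higher and 0 lower at an unadjusted p under 0.05, median 0.23) and 1 higher and 0 lower without KO replicate 3, with Pitx1 at 0.28 (edgeR adjusted p = 0.339) and Tbx4 at -0.08 (edgeR adjusted p = 0.800). The caudal and ParaHox genes Cdx1 and Gsx1 were at 0.00 to 0.14 TPM, and of the non-coding and Evx genes within the clusters Evx2 alone was in the table, at 0.00 to 0.06 TPM.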

How the data were processed

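RNA-seq libraries of cultured mouse chondrocytes (3 WT and 3 KO, grouped by their titles) were read from a gene table and a transcript table. Per the labels' protocols, STAR 2.7.5a aligned reads to mm10 (GRCm38) and featureCounts 2.0.0 counted them at a mapping quality above 20. The tables hold other values. They give estimated counts deposited by the authors, 12.9% of them not whole, under Entrez and RefSeq identifiers. Which program and annotation made them, and whether strand was used, is not given in the sources used here. The authors also deposited TPM values, which were used to compare levels between genes, and FPKM values, used as an alternative.

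Estimated counts were rounded to whole numbers, and each library then summed to 18380875 to 19643946. Genes were filtered by filterByExpr with a minimum count of 10 and a minimum total of 15. They were scaled by TMM and tested two-sided by the edgeR 4.0.16 quasi-likelihood method (R 4.3.3, limma 3.58.1), with Benjamini-Hochberg adjustment over 13692 genes. The common dispersion was 0.0525. Log2 CPM used a prior count of 2. Scripts were tested on simulated data. The closest replicates, WT 1 and WT 3, still had a chi-square of 3.12 per degree of freedom, above sampling noise, and all 6 libraries were kept separate.

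The members, the gene lists, the rule for named genes and the joint removal of WT replicate 2 and KO replicate 3 were chosen with earlier results of these data known. The rule took called members, the 3 most abundant and the largest estimate in each direction of each cluster, and paralogues of called members. From other lists it took called members and the 2 most abundant; of the marker lists summed levels are given. For 1 Hox gene and 1 gene of another list the results are not reported here, though counts and sums include them. Any further gene named with values was picked with those values in view. Alternatives were DESeq2 size factors, library size only, the DESeq2 1.42.0 Wald test, limma-voom, other filters, a replicate block and libraries left out. Coordinates, exons and homeoboxes came from GENCODE vM21 and promoters from RefSeq (GRCm38.p6).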

Additional observations from a re-analysis of the deposited data

How the results depend on the processing

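Over all genes, edgeR called 344 with all 6 libraries, the DESeq2 Wald test 1135, the fit with the replicate number as a block 5, fits with 1 library left out 0 to 3962, and that with both WT replicate 2 and KO replicate 3 left out 5416. Hox genes called higher numbered 1 with all 6 libraries, 3 by the DESeq2 Wald test, 0 with the block, 0 to 7 with 1 library left out and 10 with both left out. Those called lower numbered 0, 0 to 2 with 1 library left out and 3 with both left out. The highest of these counts with 1 library left out were without KO replicate 3. Whether replicate numbers pair the samples is not stated, and the values do not settle it. Deviations of same-numbered libraries from their group means correlated at -0.143, 0.215 and 0.238, and 3 of 6 libraries correlated best with their own number. The median log2 fold change of the Hox genes, 0.13, was 0.08 to 0.19 with 1 library left out and 0.20 with both left out. That of Hoxa, 0.02, was -0.03 to 0.14 and 0.11, and that of Hoxd, 0.57, was 0.46 with both left out. The medians of Hoxb and Hoxc and the shares of Hox TPM by cluster, also from FPKM, moved by less than the spread between replicates. Of 362 values of single Hox genes under 14 alternatives, 323 kept their direction and side of the threshold, 17 gained a call, 6 lost one (all Hoxb9) and 16, of 8 members, changed sign. Hoxc10, at -0.01, was 0.01 by library size only, 0.00 by the Wald test, 0.20 with both left out and -0.11 to 0.16 with 1 library left out, and Hoxa10 was 0.04 with both left out. With 1 library left out, Hoxa3 was -0.08 to 0.14, Hoxa5 -0.06 to 0.08, Hoxa13 -0.04 to 0.36, Hoxc5 -0.01 to 0.29, Hoxc8 -0.14 to 0.39 and Hoxc11 -0.10 to 0.30. The cause was not tested. Low depth limits the 10 untested genes, which had at most 42 counts summed over a group.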
